A study of Rattus norvegicus with 25 samples.

Results

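The genes followed here were 10 chemokines, the small secreted proteins that draw leukocytes along a gradient: Cxcl1, Cxcl2, Cxcl9, Cxcl10, Cxcl11, Cxcl13, Cxcl12, Ccl2, Ccl3 and Ccl5. They were taken by symbol from the deposited counts. All 10 were present among 16881 distinct symbols, none of them in a repeated row, and all 10 passed the filter on low counts that left 11492 genes for testing.

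The tissue was tooth and periodontal ligament of Sprague-Dawley rats whose maxillary first molar had been extracted, left dry and put back. The tooth was dried for 5 min before immediate replantation (IR) or for 60 min before delayed replantation (DR), and collection was on day 3 or day 7, giving 4 groups of 6 libraries (24 replanted libraries). A single further library, NT, is labelled as control for both treatment and time. All libraries carry the age of postnatal day 21, with no word on whether that is the age at surgery or at collection, so NT may differ in age. Whether each library is a separate animal is not stated, and p-values then measure only the spread between these libraries. Every replanted library shares the extraction and the replantation, and none is a replanted tooth without drying. In bulk tissue, fewer cells of a type and less RNA per cell cannot be told apart.

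Chemokines are grouped by the receptors they bind. Cxcl1 and Cxcl2 bind Cxcr2 and attract neutrophils. Ccl3 attracts neutrophils and monocytes through Ccr1 and other receptors, and Ccl2 attracts monocytes through Ccr2. Cxcl9, Cxcl10 and Cxcl11 are induced by interferon and attract activated T and NK cells through Cxcr3, Ccl5 attracts T cells and monocytes, and Cxcl13 attracts B cells through Cxcr5. Cxcl12 differs from the others in being made constantly by stromal cells, where it holds Cxcr4-bearing leukocytes and progenitors in place. In periodontal tissue these signals are known for drawing neutrophils, and later lymphocytes, to bacteria and to injured ligament.

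The bases just upstream of the start sites are shown for Cxcl2, Cxcl10, Cxcl11 and Cxcl13, the genes on whose levels the results below turn. RefSeq promoters on the rat build GRCr8 were found for 7 of the 10 genes (not Ccl2, Ccl3 or Ccl5). Each sequence below is the 250 bases before the start, 5′ to 3′ on the gene's strand, in lower case. Capitals mark matches to the NF-kB consensus or to the core of the interferon-stimulated response element.
Cxcl2, chr14:17467256-17467505 (minus strand): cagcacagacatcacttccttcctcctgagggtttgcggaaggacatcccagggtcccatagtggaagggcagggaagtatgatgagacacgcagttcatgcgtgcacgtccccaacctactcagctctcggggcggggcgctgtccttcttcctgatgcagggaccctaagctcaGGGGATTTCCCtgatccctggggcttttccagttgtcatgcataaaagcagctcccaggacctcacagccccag
Cxcl10, chr14:15988816-15989065 (plus strand): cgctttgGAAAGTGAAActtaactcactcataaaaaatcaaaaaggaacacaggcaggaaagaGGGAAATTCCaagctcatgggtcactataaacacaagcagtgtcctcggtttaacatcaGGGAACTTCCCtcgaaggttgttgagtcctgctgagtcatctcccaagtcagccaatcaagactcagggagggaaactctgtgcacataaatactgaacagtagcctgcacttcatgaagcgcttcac
Cxcl11, chr14:15973478-15973727 (plus strand): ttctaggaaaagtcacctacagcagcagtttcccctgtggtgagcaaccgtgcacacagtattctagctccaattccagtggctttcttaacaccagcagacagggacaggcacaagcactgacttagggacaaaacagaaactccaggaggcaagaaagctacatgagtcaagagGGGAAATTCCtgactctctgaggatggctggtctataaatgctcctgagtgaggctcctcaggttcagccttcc
Cxcl13, chr14:13917921-13918170 (minus strand): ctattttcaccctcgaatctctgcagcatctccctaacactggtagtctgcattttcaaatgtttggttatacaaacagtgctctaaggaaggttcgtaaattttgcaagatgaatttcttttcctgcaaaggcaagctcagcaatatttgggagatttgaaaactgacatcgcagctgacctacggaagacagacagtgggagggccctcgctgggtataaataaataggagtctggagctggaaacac

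Both motifs were searched on both strands of the 300 bases from 250 before to 50 after each start, and overlapping matches on opposite strands of a near-palindrome counted as 1 site. The NF-kB consensus was found in 4 of the 7 genes, Cxcl1, Cxcl2, Cxcl10 and Cxcl11, and in 7.51% of 33469 RefSeq promoters of the same length. In Cxcl2 and in Cxcl11 the match began 74 bases before the start, in Cxcl1 84 bases before it, and Cxcl10 held sites at -187 and -128. The response element core was found in Cxcl10 alone among the 7, at -243, and in 3.92% of all promoters. Neither motif was found in Cxcl9, Cxcl13 or Cxcl12, which says only that these letters are not in this window. Cxcl1 and Cxcl2 start 12.1 kb apart on chromosome 14, and Cxcl9, Cxcl10 and Cxcl11 lie within 33.4 kb of each other on the same chromosome.

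**Figure D1:**
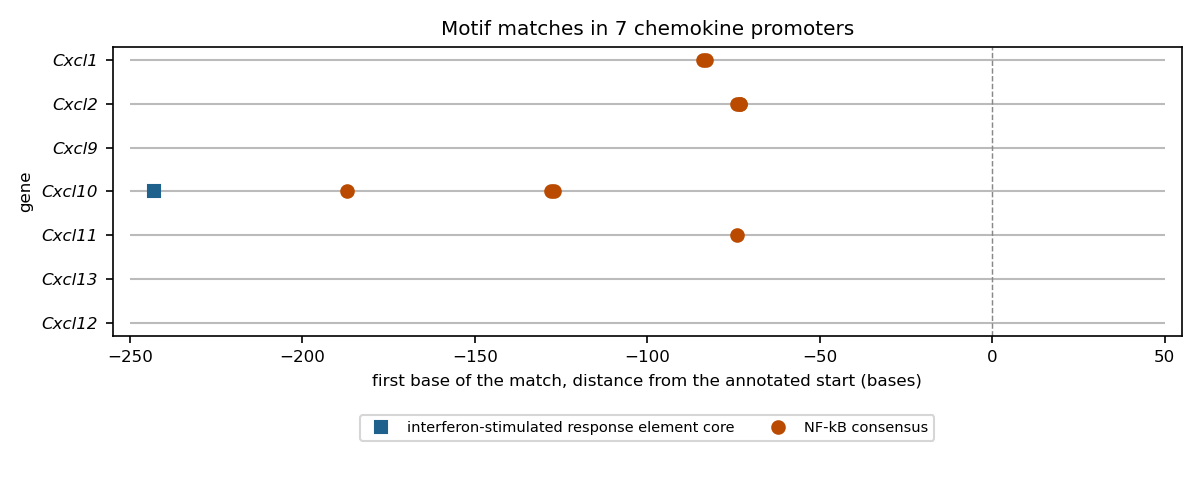
Motif matches by distance from the start site (x axis, bases) for the 7 chemokines with a RefSeq promoter (rows), with a symbol for each motif. NF-kB consensus matches sit within 84 bases of the start in Cxcl1, Cxcl2 and Cxcl11, and Cxcl10 is the row that holds both motifs.

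The replanted libraries held 5.044 to 8.812 M counts each, and NT held 8.554 M. Ribosomal RNA took 9.813% to 34.1% of a replanted library and 2.926% of NT. Levels are given as CPM, counts scaled to a library of 1 M and for composition, where 3 counts, the limit that a count of 0 allows, equal 0.3174 to 0.741 CPM. The label tooth was checked with Dspp, the dentin matrix gene of odontoblasts, which stood at 1070 CPM in NT and 0 to 39.3 CPM in the replanted libraries, with 0 counts in 9 of 24. Postn, a ligament matrix gene, stood at 2810 CPM in NT and 5.23 to 1170 CPM after replantation. Several day 3 libraries held much RNA of other tissues. Markers of lipid-secreting glands took 1.84%, 1.8% and 2.36% of counts in DR day 3 replicates 1, 2 and 3 and 2.85% in IR day 3 replicate 6, against at most 0.61% elsewhere, and nasal gland markers took 20.8% and 24.8% in IR day 3 replicates 3 and 4, against at most 8.89% elsewhere. The averaged comparison of days is therefore also given without these 6 libraries.

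Between day 3 and day 7 Cxcl10, Cxcl11, Cxcl13, Ccl5 and Cxcl12 rose, while Cxcl9, Cxcl1, Cxcl2, Ccl2 and Ccl3 did not pass the test. Among these uncalled genes the median over 12 libraries still went from 21.93 to 339.3 CPM for Cxcl2 and from 7.108 to 130.1 CPM for Ccl3. Whether called and uncalled genes differ in their change was not tested. With the IR and DR changes averaged (12 libraries a day), Cxcl11 was 9.83-fold, Cxcl10 7.02-fold, Cxcl13 6.1-fold, Ccl5 2.19-fold and Cxcl12 1.47-fold higher at day 7. These are 5 of the 10 chemokines, at an adjusted p under 0.05 by edgeR's quasi-likelihood test with Benjamini-Hochberg adjustment over 11492 genes, where 6.94% of all genes were called higher. None was called lower. The fold change was positive for 10 of 10 chemokines, against 45.3% of all genes, and their median log2 fold change was 1.15, against -0.0593 over all genes. The count fell to 1, Cxcl13, without the 6 libraries rich in gland RNA, and to 0 with gland and muscle marker levels as covariates, where 0.431% and 0.757% of all genes were called.

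**Figure D2:**
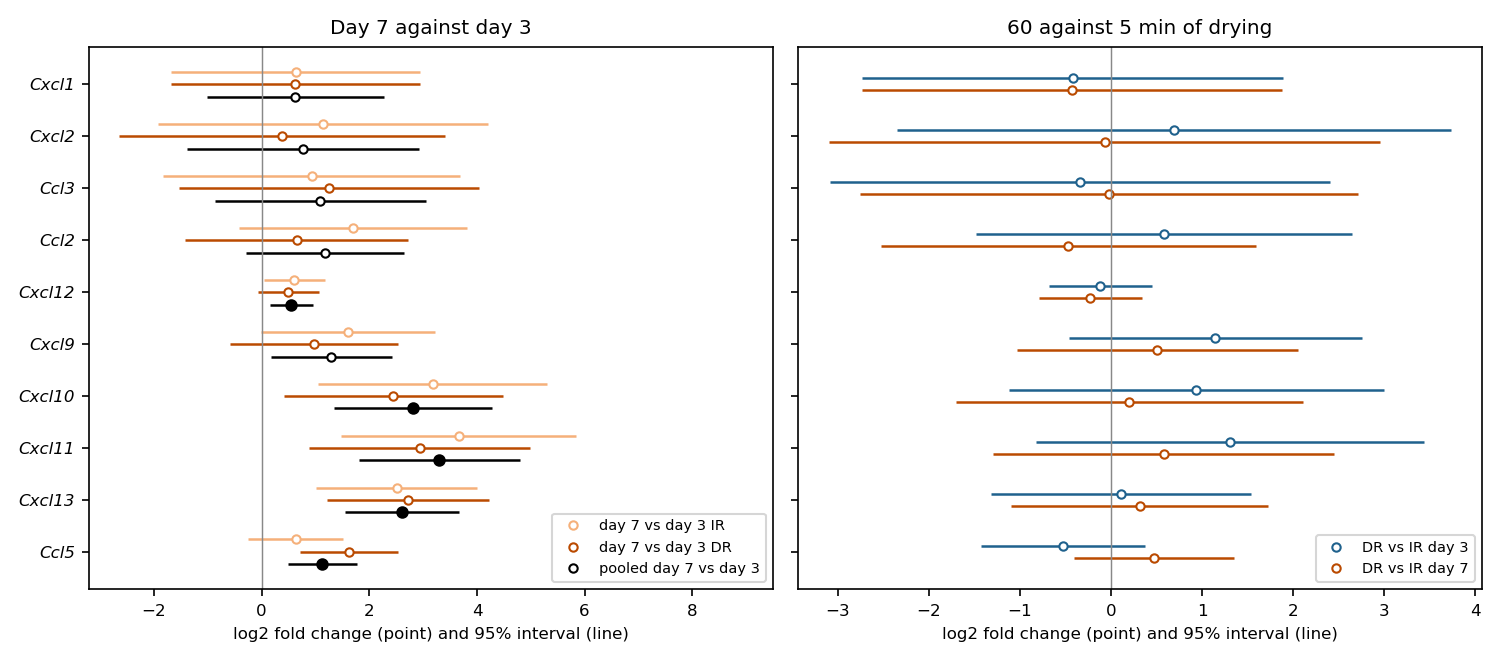
Log2 fold change (point) and 95% interval (line, x axis) of each chemokine (y axis), for day 7 against day 3 on the left and for 60 against 5 min of drying on the right. Filled points have an adjusted p under 0.05, and these are Cxcl10, Cxcl11, Cxcl12, Cxcl13 and Ccl5 in the averaged comparison of days.

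Cxcl13, the B cell attractant, had the most separated days. At day 3 its lowest, median and highest levels were 1.006, 16.27 and 45.7 CPM in IR and 1.118, 26.38 and 41.76 CPM in DR. At day 7 they were 26.45, 139 and 220.6 CPM in IR and 61.47, 122.4 and 351.2 CPM in DR. Of the 12 day 7 libraries 11 lay above the highest day 3 library, and only IR day 7 replicate 6, at 26.45 CPM, lay within the day 3 range. The log2 difference was 2.61 (SE 0.513, 95% interval 1.547 to 3.671, edgeR adjusted p = 0.00653). Without the 6 gland-rich libraries it was just under the threshold (log2 difference 2.33, edgeR adjusted p = 0.0485). With gland and muscle marker levels as covariates it was not called (edgeR adjusted p = 0.0948). Its receptor Cxcr5 was too low to be tested, with at most 12 counts in a library.

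Cxcl11 and Cxcl10, which attract activated T and NK cells, came from near the counting limit at day 3 to modest levels at day 7. Cxcl11 had medians of 0.05756 CPM in IR and 0.8895 CPM in DR at day 3, with highest values of 2.728 and 5.204 CPM. At day 7 its range was 0.9522 to 15.79 CPM in IR (median 9.335) and 2.253 to 45.17 CPM in DR (median 10.11). Of the 12 day 7 libraries 9 were above every day 3 library, and 3 day 3 libraries had no Cxcl11 count at all. The log2 difference was 3.30 (SE 0.723, 95% interval 1.8 to 4.795, edgeR adjusted p = 0.00853).

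Cxcl10 ran from 0 to 4.34 CPM in IR and from 0 to 17.4 CPM in DR at day 3, with medians of 2.109 and 1.553 CPM. At day 7 it ran from 3.174 to 38.84 CPM in IR (median 18.62) and from 4.761 to 69.42 CPM in DR (median 10.59). The days overlapped more than for Cxcl11, since DR day 3 replicate 4, at 17.4 CPM, exceeded 6 of the 12 day 7 libraries. The log2 difference was 2.81 (SE 0.711, 95% interval 1.338 to 4.284, edgeR adjusted p = 0.0125). Without the 6 gland-rich libraries the log2 differences were 2.67 for Cxcl11 and 2.15 for Cxcl10, with edgeR adjusted p of 0.153 and 0.208.

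Cxcl9, the third Cxcr3 ligand, did not pass the test. Its medians were 2.351 CPM (IR) and 3.862 CPM (DR) at day 3 and 5.582 CPM (IR) and 7.185 CPM (DR) at day 7, and 2 of the 12 day 7 libraries lay above the highest day 3 library. That library, DR day 3 replicate 5 at 14.67 CPM, decided the call. With it the log2 difference was 1.29 (SE 0.542, edgeR adjusted p = 0.0917), and without it 1.70 (edgeR adjusted p = 0.0329). It was 1.09 without the 6 gland-rich libraries (edgeR adjusted p = 0.466).

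Ccl5, which attracts T cells and monocytes, changed by less but varied less between libraries. In IR its median was 4.763 CPM at day 3 and 7.056 CPM at day 7, and in DR 2.952 CPM at day 3 and 10.58 CPM at day 7. The DR groups did not overlap, with day 3 at 2.014 to 4.766 CPM and day 7 at 6.83 to 13.52 CPM (1.93% of all genes were higher at day 7 without overlap in DR). The IR groups overlapped over most of their range. The averaged log2 difference was 1.13 (SE 0.307, 95% interval 0.4945 to 1.765, edgeR adjusted p = 0.0165). It was 1.30 without the 6 gland-rich libraries, with an edgeR adjusted p of 0.149.

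Cxcl12, the stromal retention signal, showed the smallest called change. Its medians were 62.99 CPM (IR) and 58.18 CPM (DR) at day 3 and 100.8 CPM (IR) and 83.81 CPM (DR) at day 7, and 4 of the 12 day 7 libraries lay above the highest day 3 library. The log2 difference was 0.55 (SE 0.193, 95% interval 0.1525 to 0.9517, edgeR adjusted p = 0.0486). It passed the threshold in 7 of the 24 fits that left out 1 replanted library (edgeR adjusted p between 0.0192 and 0.0807), those without IR day 3 replicate 1, 2, 5 or 6, DR day 3 replicate 6, IR day 7 replicate 1 or DR day 7 replicate 1. With the replicate number as a block the edgeR adjusted p was 0.0917. Without the 6 gland-rich libraries it was 0.26 (edgeR adjusted p = 0.458).

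At day 3 the neutrophil and monocyte attractants varied most of the 10 between libraries of the same group. Cxcl2 stood at 684.9, 441.1, 35.92, 0, 7.943 and 0 CPM in IR day 3 replicates 1 to 6, and at 1.904, 0.4967, 4.936, 1369, 86.03 and 429.9 CPM in DR day 3 replicates 1 to 6. Both groups thus held libraries near 0 beside libraries above the day 7 median of 339.3 CPM. At day 7 it was at 39.14 to 854.4 CPM in IR (median 294.2) and 107.2 to 866.1 CPM in DR (median 426.3), and no library was near 0. The within-group SD of its log2 CPM was 4.659 at day 3 and 1.399 at day 7, and at day 3 the SD was larger than that of 99.96% of the genes tested.

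**Figure D3:**
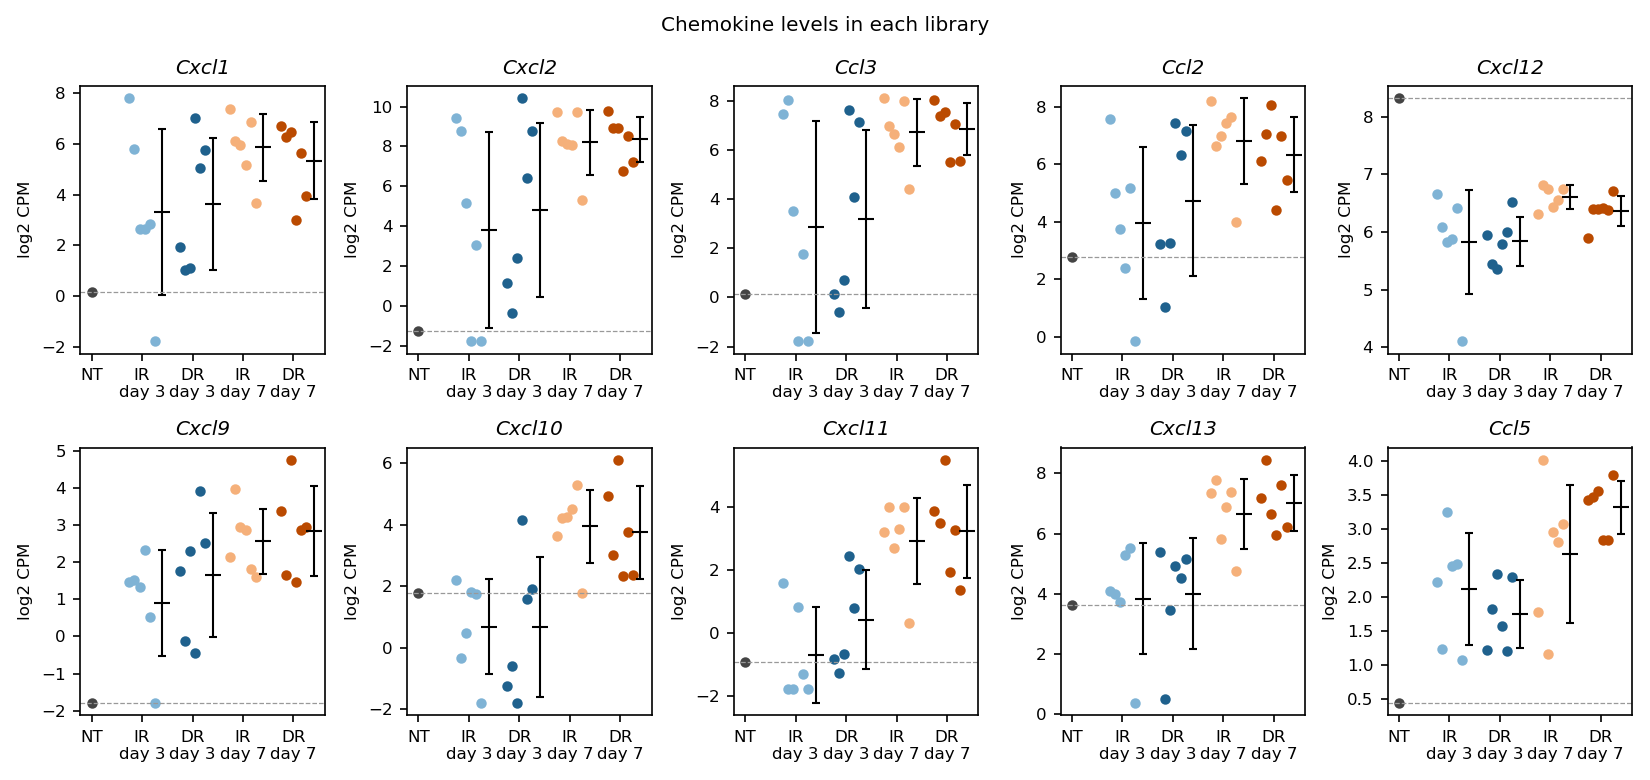
Level of each chemokine (y axis, log2 CPM, 1 panel per gene) in NT and the 4 replanted groups (x axis). NT has 1 point, and each replanted group has 6 points for its libraries and a bar for the mean ± SD. A dashed line marks the NT level. Day 3 libraries of Cxcl2 and Ccl3 reach from the counting limit to the day 7 level, whereas Cxcl13 is higher at day 7 in 11 of 12 libraries than in any day 3 library.

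Ccl3 and Cxcl1 shared that form. Ccl3 ranged from 0 to 261 CPM in IR day 3 (median 7.108) and from 0.3725 to 196.7 CPM in DR day 3 (median 9.169), then from 21.05 to 279 CPM in IR day 7 (median 114.8) and from 45.95 to 265.8 CPM in DR day 7 (median 149.5). Cxcl1 ranged from 0 to 222.6 CPM in IR day 3 (median 6.36) and from 1.738 to 128.5 CPM in DR day 3 (median 18.1). At day 7 the Cxcl1 medians were 64.53 CPM in IR and 63.67 CPM in DR. Ccl2, the monocyte attractant, had medians of 22.28 CPM in IR and 44.73 CPM in DR at day 3 and of 148.3 CPM in IR and 96.22 CPM in DR at day 7.

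For these 4 genes the size of the day difference depended on the scale. The edgeR fold compares group means, in which the highest libraries weigh most, and gave log2 differences of 0.76 (SE 1.04) for Cxcl2, 1.09 (SE 0.946) for Ccl3, 0.63 (SE 0.79) for Cxcl1 and 1.18 (SE 0.712) for Ccl2. The edgeR adjusted p were 0.626, 0.424, 0.594 and 0.242. Without IR day 3 replicate 1, its highest day 3 library, Ccl2 was called (log2 difference 1.89, edgeR adjusted p = 0.0471). The mean log2 CPM of Cxcl2, in which each library weighs alike, came to 4.301 ± 4.472 (SD, n = 12) on day 3, compared with 8.278 ± 1.336 (SD, n = 12) on day 7. With limma-voom and library quality weights all 4 were called higher at day 7, by 5.30 for Cxcl2, 5.14 for Ccl3, 2.83 for Cxcl1 and 2.81 for Ccl2 on the log2 scale, in a fit that called 47.6% of all genes. Without the 6 gland-rich libraries the edgeR log2 difference was -0.1839 for Cxcl2, -0.292 for Cxcl1, 0.28 for Ccl2 and 0.14 for Ccl3.

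**Figure D4:**
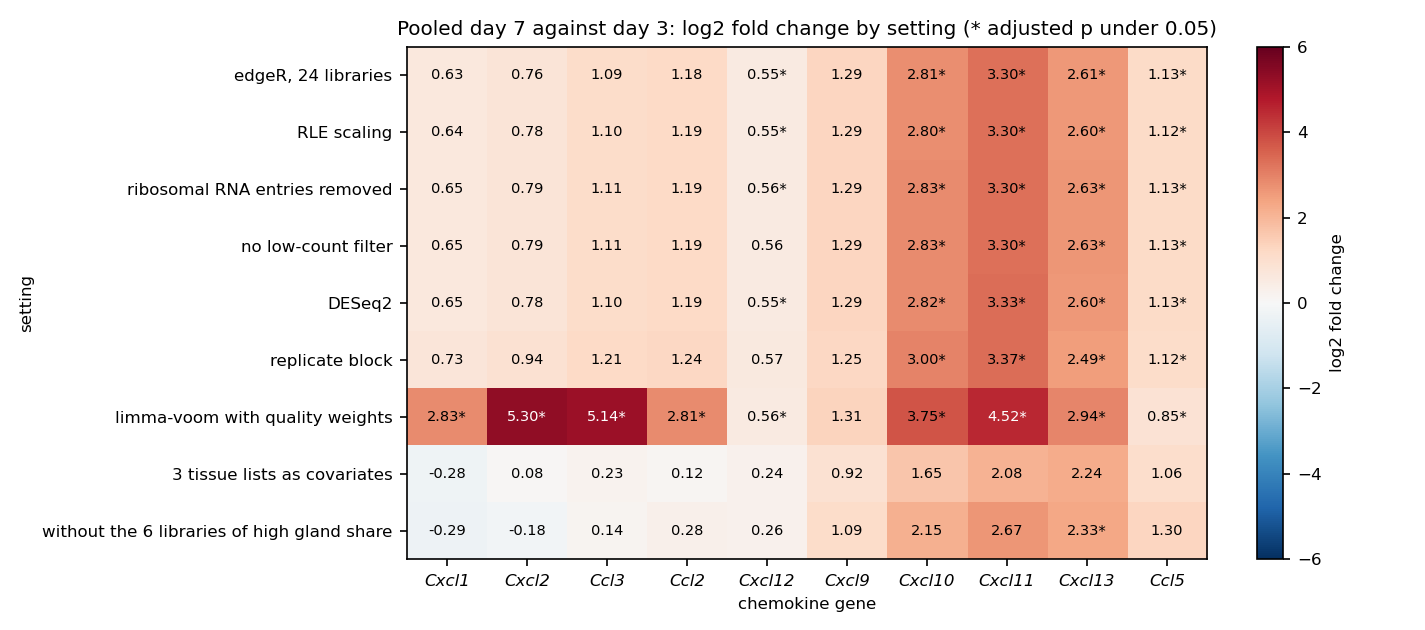
Log2 difference between day 7 and day 3, averaged over IR and DR, as a colour and a number, for each chemokine (columns) under each way of fitting the counts (rows), with an asterisk for an adjusted p under 0.05. Values of Cxcl1 and Cxcl2 lie on both sides of 0, whereas those of every other chemokine, Ccl2 and Ccl3 included, are above 0 in each of the 9 rows.

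Marker levels of several cell types moved with Cxcl2 and Ccl3 across the day 3 libraries, those of neutrophils among them. The summed level of 12 neutrophil markers, all found in the files, was 56.58, 217.8 and 88 CPM in DR day 3 replicates 1, 2 and 3 and 84.47 and 51.69 CPM in IR day 3 replicates 4 and 6. Those 5 libraries, all of them among the gland-rich ones, had 0 to 4.936 CPM of Cxcl2 and 0 to 1.362 CPM of Ccl3. The other 7 day 3 libraries had neutrophil sums of 2136 to 9758 CPM and Cxcl2 between 7.943 and 1369 CPM. Monocyte and macrophage markers summed to 108 to 596.5 CPM in the 5 libraries and 1178 to 3801 CPM in the other 7, and ligament and fibroblast markers to 1172 to 12150 CPM and 11700 to 42960 CPM. At day 7 the sum was 1880 to 8167 CPM in IR and 2185 to 6189 CPM in DR, and 0 of the 10 neutrophil markers tested were called between days. The part of cell numbers in the Cxcl2 levels was not tested.

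NT joined a high neutrophil marker sum, 10080 CPM, with almost no Cxcl2. Most of that sum was S100a8 and S100a9, calprotectin genes of mature neutrophils. They stood at 4310 and 4040 CPM in NT and reached 4010 and 5170 CPM in replanted libraries. Ngp, Camp and Mpo, granule genes that are made mainly by precursors in marrow, stood at 553, 726 and 171 CPM in NT and reached at most 63.7, 152 and 23.9 CPM in any replanted library. Il1r2 and Csf3r, which mature neutrophils keep, were at 8.16 and 2.48 CPM in NT and reached 138 and 65.7 CPM at day 7. Of the other markers in the sum, Elane was at 44.5 CPM in NT and at most 19.8 CPM after replantation. Mmp9 and Retnlg were at 204 and 27 CPM in NT and reached 1170 and 36.8 CPM at day 7. Mmp8 and Ltf were at most 2.23 CPM in any library.

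**Figure D5:**
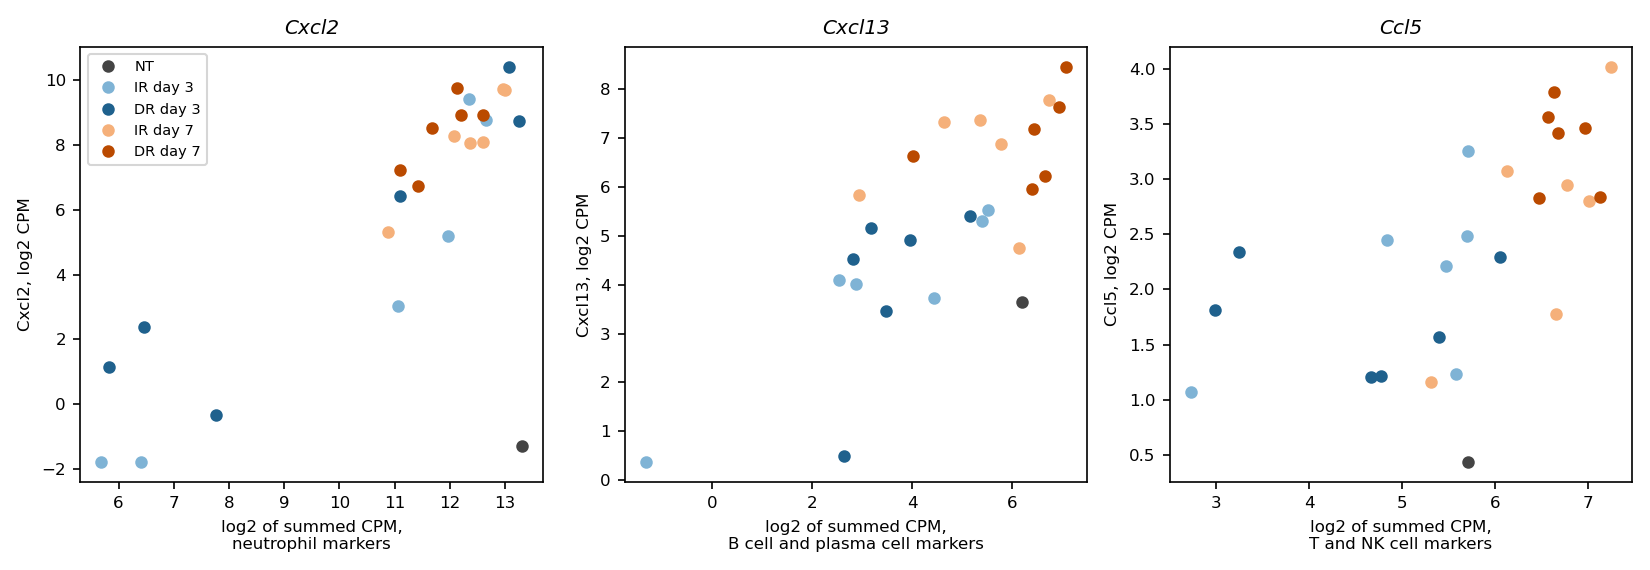
Level of Cxcl2, Cxcl13 and Ccl5 (y axes, log2 CPM) against the log2 of the summed CPM of neutrophil, of B and plasma cell, and of T and NK cell markers (x axes), 1 point per library with a colour for each group. In the Cxcl2 panel 5 day 3 libraries with neutrophil sums of 51.69 to 217.8 CPM lie at the lower left, and NT, with a sum of 10080 CPM and 0.1183 CPM of Cxcl2, lies at the lower right.

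Lymphocyte markers were higher at day 7 beside Cxcl10, Cxcl11, Cxcl13 and Ccl5. Of 9 T and NK cell markers tested, 7 were called higher at day 7 and none lower. Their summed level, over 12 markers, was 6.638 to 52.39 CPM (IR) and 7.947 to 66.39 CPM (DR) at day 3, and 39.75 to 151.6 CPM (IR) and 88.38 to 139.2 CPM (DR) at day 7. Of 5 B and plasma cell markers tested, 4 were called higher, with sums of 0.4023 to 45.7 CPM at day 3 and 7.626 to 135 CPM at day 7 over both drying times. Of 11 monocyte and macrophage markers tested, 4 were called higher and none lower. Of 6 lipid gland markers tested, 5 were called lower at day 7 and 1, Dgat2, higher (log2 difference 1.58, edgeR adjusted p = 0.0418; named after its value was seen). Beside these counts, 6.94% of all genes were called higher and 11.8% lower. Without the 6 gland-rich libraries 1 of 11 T and NK cell markers was called higher, in a fit that called 0.431% of all genes. None of the B cell, macrophage or lipid gland markers was called in it. The median log2 difference went from 2.09 to 1.72 for T and NK cell markers and from 1.81 to 2.26 for B cell markers. It went from 1.13 to 0.495 for macrophage markers and from -4.64 to -1.08 for lipid gland markers. The part of tissue and cell makeup in the chemokine changes was not tested beyond the covariate fit and the fit without gland-rich libraries given above.

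Within a drying time, where 6 libraries stood against 6, 10 of 10 differences were positive in IR and 10 of 10 in DR, and none was called. The median log2 difference over all genes was -0.0904 in IR and 0.00158 in DR. Several of the 10 vary together, so their signs are not separate observations. Without the gland-rich libraries Cxcl1 was negative in IR (-0.2746), and Cxcl1 (-0.3094), Cxcl2 (-0.5913) and Ccl2 (-0.2598) were negative in DR. In IR no chemokine passed the threshold (0.139% of all genes did), and 4 had an unadjusted p under 0.05 by edgeR, against 20.4% of all genes. The largest were 3.66 for Cxcl11 (SE 1.055, edgeR adjusted p = 0.113), 3.18 for Cxcl10 (SE 1.029, edgeR adjusted p = 0.124) and 2.51 for Cxcl13 (SE 0.7225, edgeR adjusted p = 0.113) on the log2 scale. In DR no chemokine passed either (0.0087% of all genes did), and 4 had an unadjusted p under 0.05, against 22.5% of all genes. The largest there were 2.94 for Cxcl11 (SE 0.9887, edgeR adjusted p = 0.106), 2.71 for Cxcl13 (SE 0.7275, edgeR adjusted p = 0.0867) and 2.44 for Cxcl10 (SE 0.9829, edgeR adjusted p = 0.149), with 1.63 for Ccl5 (SE 0.4392, edgeR adjusted p = 0.0867). The estimates for IR and DR were 0.63 and 1.63 for Ccl5, 1.70 and 0.65 for Ccl2 and 1.14 and 0.38 for Cxcl2. DESeq2 called 3 chemokines in IR (Cxcl10, Cxcl11 and Cxcl13) beside 5.89% of all genes, and 3 in DR (Cxcl11, Cxcl13 and Ccl5) beside 8.01%. Limma-voom with quality weights called 8 in IR and 5 in DR, where it called 38.1% and 28.6% of all genes. EdgeR called Cxcl11 in IR without IR day 3 replicate 1, called Cxcl10 in DR without DR day 3 replicate 4, and called Cxcl11, Cxcl13 and Ccl5 in DR without IR day 3 replicate 6, which enters that fit through the shared estimate of spread.

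Drying for 60 rather than 5 min was not followed by a detected change of any of the 10 chemokines. At day 3 none passed the threshold by edgeR (0% of all genes did), none had an unadjusted p under 0.05 (2.72% of all genes did), and DESeq2 called none. With limma-voom and library quality weights none of the 10 was called either, where 10.3% of all genes were. The largest edgeR log2 differences, DR minus IR, were 1.31 for Cxcl11 (95% interval -0.8266 to 3.44) and 1.15 for Cxcl9 (-0.4636 to 2.759). Cxcl12 was bounded most closely, at -0.12 (-0.6835 to 0.4446), and Cxcl2 least, at 0.69 (-2.348 to 3.734), so large effects of drying on Cxcl2 in either direction lie within the error.

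At day 7 none passed the threshold by edgeR (0% of all genes did), none had an unadjusted p under 0.05 (1.79% of all genes did), and DESeq2 called none of them. The log2 differences ran from -0.47 for Ccl2 to 0.58 for Cxcl11 (-1.292 to 2.454). Ccl5 differed by 0.47 (-0.4112 to 1.347), Cxcl13 by 0.32 (-1.095 to 1.727) and Cxcl12 by -0.23 (-0.7904 to 0.336). The drying effect did not differ between days for any chemokine by edgeR's interaction term, with 0 called (0% of all genes) and 0 at an unadjusted p under 0.05 (3.01% of all genes). Its extremes were 0.9998 (SE 0.609) for Ccl5 and -1.05 (SE 1.41) for Ccl2. With limma-voom and library quality weights the interaction was also called for 0 chemokines, beside 4.54% of all genes. In the order of group means, IR and DR of the same day were within 1 pooled SD of each other for each of the 10 genes.

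Against the NT library, which allows no test, the day 3 means of the neutrophil and monocyte attractants were higher and Cxcl12 was lower in every group. The day 3 means rested on a few libraries: Ccl3 was below NT in 4 of the 12 day 3 libraries, and Cxcl2 had 0 counts in 2. The ratios below add 5 CPM to both means. At day 3 the 4 genes Cxcl1, Cxcl2, Ccl2 and Ccl3 were past 2-fold higher in IR and in DR, where 10.2% of all genes were in each. Without the 6 gland-rich libraries the same 4 were in IR (6.94% of all genes), and 6 were in DR (7.25% of all genes), with Cxcl9 and Cxcl13 added. At day 7 all but Cxcl12 were, 9 of 10 in IR (4.8% of all genes) and 9 of 10 in DR (6.47% of all genes). In IR the count was 7 without IR day 7 replicate 2, when Cxcl9 and Ccl5 fell short at day 7, and 3 at day 3 without IR day 3 replicate 1, when Ccl2 did. Only Cxcl12 was past 2-fold lower in any group, where the share of all genes was 4.86% (IR) and 6.2% (DR) at day 3 and 2.82% (IR) and 3.58% (DR) at day 7.

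Cxcl2 had 1 count in NT, 0.1183 CPM, and the log2 ratios at day 3 were 5.29 (IR) and 5.97 (DR), and at day 7 they were 6.41 (IR) and 6.34 (DR). Without the added CPM the IR day 7 mean was 3640 times the NT level, with a counting interval from 654 to 144000. Ccl3 had 7 counts in NT and log2 ratios of 3.79, 3.47, 4.67 and 4.65 in the same order. Cxcl13 had 103 counts, and its log2 ratios were 0.65 and 0.74 at day 3 and 2.91 and 3.22 at day 7. Cxcl9 had no count in NT, so against the limit of 3 counts its mean was at least 6.16-fold (IR) and 13.6-fold (DR) higher at day 3 and at least 18.7-fold (IR) and 26.6-fold (DR) higher at day 7. Cxcl11 had 2 counts, and the ratio of means without added CPM was 3.05 in IR day 3 (counting interval 0.843 to 25.1) and 40.4 in IR day 7 (11.2 to 333).

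Cxcl12 was below NT in every replanted group. NT held 2706 counts of it, 320.1 CPM (95% counting interval 308 to 332), and the 24 replanted libraries held 16.9 to 113 CPM, all below NT. NT was 4.70-fold higher than IR and 5.07-fold higher than DR at day 3, and 3.16-fold higher than IR and 3.67-fold higher than DR at day 7, with 5 CPM added. Ligament and fibroblast markers, summed over 10 genes, came to 150100 CPM in NT, 1172 to 42960 CPM at day 3 and 34360 to 98800 CPM at day 7. Most of the NT sum was Col1a1, at 126000 CPM there and 363 to 84700 CPM in the replanted libraries. The part of these markers' cells in the Cxcl12 level was not tested. Cxcl10, with 27 counts in NT, was also lower in IR day 3 on the mean (log2 ratio -0.22), then higher in DR day 3 (0.14), IR day 7 (1.55) and DR day 7 (1.71), and it was above NT in 15 of 24 replanted libraries. Ccl5 was above NT, at 1.065 CPM there, in 24 of 24 replanted libraries.

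Of 8 chemokine receptors tested, 3 were called higher at day 7 and none lower, where 6.94% of all genes were called higher. None was called without the 6 gland-rich libraries, in a fit that called 0.431% of all genes. Xcr1, found on cross-presenting dendritic cells, had a log2 difference of 1.97 (SE 0.633, edgeR adjusted p = 0.0343), with medians of 0.867 and 0.433 CPM in IR and DR at day 3 and 1.47 and 3.09 CPM at day 7. Cxcr3, the receptor of Cxcl9, Cxcl10 and Cxcl11, had a difference of 1.35 (SE 0.465, edgeR adjusted p = 0.0458), with medians of 1.55 and 0.67 CPM at day 3 and 2.97 and 3.03 CPM at day 7. Cxcr4, the receptor of Cxcl12, had a difference of 0.72 (SE 0.236, edgeR adjusted p = 0.0383). Cxcr2, the receptor of Cxcl1 and Cxcl2, was not called (1.05, edgeR adjusted p = 0.36) and was at most 3.47 CPM in any replanted library. Ackr3, a scavenger of Cxcl12, was not called either (0.15, edgeR adjusted p = 0.659).

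Of 19 other chemokines tested, 3 were called higher at day 7 and none lower, beside 6.94% of all genes called higher, and none of 21 tested was called without the 6 gland-rich libraries. Ccl12, a monocyte attractant of rodents, had a log2 difference of 2.21 (SE 0.632, edgeR adjusted p = 0.0204). Ccl21, which draws T cells and dendritic cells through Ccr7, had a difference of 1.28 (SE 0.377, edgeR adjusted p = 0.0233), and Cxcl16 one of 1.05 (SE 0.34, edgeR adjusted p = 0.035). Among 13 genes that induce chemokines, or relay NF-kB or interferon signals, 6 were called higher at day 7 and none lower, Tnf, Ltb and Irf7 among them, and 1 of 14 was called without the 6 libraries. The median log2 difference was 1.04 over the receptors, 1.01 over the other chemokines and 1.19 over these inducers and relays, against -0.0593 over all genes. Without the 6 libraries, where 0.431% of all genes were called, these medians were 0.542, 0.466 and 0.655, against -0.00335 over all genes. Tnf, an activator of NF-kB, rose by 2.01 (SE 0.688, edgeR adjusted p = 0.0442), Irf7, an interferon regulator, by 1.74 (SE 0.484, edgeR adjusted p = 0.0185), and Ltb, the lymphotoxin subunit that drives Cxcl13 in lymphoid tissue, by 1.67 (SE 0.263, edgeR adjusted p = 0.00162). Il1b, an inducer of Cxcl1 and Cxcl2, was not called (1.27, SE 0.897, edgeR adjusted p = 0.319), and its median was 53.3 and 80.4 CPM at day 3 and 859 and 931 CPM at day 7 in IR and DR. Ifng, the inducer of Cxcl9, reached at most 4 counts in a library and was not tested. None of these 3 lists had a gene called in any of the other 5 comparisons by edgeR, where unadjusted p under 0.05 were found for 4, 2 and 6 genes over time in IR, for 3, 2 and 7 in DR, and for 0 in the drying comparisons and their interaction.

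The 10 chemokines differed in how they varied from library to library, described here by Pearson's r of log2 CPM over the 24 replanted libraries, which share days and tissue makeup. Cxcl2 and Ccl3 were most alike (r = 0.991, and 0.984 within the 12 day 7 libraries), although 1 is a CXC and 1 a CC chemokine. The genes outside the 10 most like both were Il1rn (r = 0.983 with Cxcl2 and 0.985 with Ccl3), the interleukin-1 receptor antagonist, and Il1b (r = 0.977 with each). Ccl2 was most like Ccl7 (r = 0.981), another monocyte attractant, and Cxcl1 most like Tgfbr1 (r = 0.982), a receptor of TGF-beta.

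Cxcl10 and Cxcl11 were alike over all libraries (r = 0.916) and within day 7 (r = 0.9). The genes nearest Cxcl10 were Igtp (r = 0.932), an interferon-induced GTPase, Tnfaip2 (r = 0.91) and Psmb9 (r = 0.908), an immunoproteasome subunit that was also near Cxcl11 (r = 0.935) beside Casp1 (r = 0.938). Cxcl13 was nearest LOC100910973 (r = 0.946), Fgd2 (r = 0.939) and RT1-Da (r = 0.923), an MHC class II gene. Cxcl9 had no close neighbour, with 0.746 for Lpxn as the highest. Ccl5 was nearest Sept1 (r = 0.826), Ly86 (r = 0.776) and Lck (r = 0.757), a kinase of T cells. Cxcl12 had a positive r with each of the other 9 over 24 libraries, and within the 12 day 7 libraries the r ran from -0.563 (Cxcl2) to -0.0267 (Ccl5).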

How the data were processed

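Trizol RNA, 500 ng per sample, was made into Lexogen QuantSeq libraries per the labels' protocols, a kit that reads the 3′ ends of transcripts, so a count does not grow with transcript length. The authors deposited 1 file of raw read counts by gene symbol for every library. Bowtie2, edgeR and the builds mm10 and rn6 are named in the submitters' processing notes. Not given in the sources used here are the counting tool, strand setting and annotation, so reads shared with overlapping or near-identical genes cannot be told apart. The 24 replanted libraries entered 1 fit (edgeR 4.0.16 in R 4.3.3, TMM scaling, genes kept by filterByExpr per group, robust quasi-likelihood, 20 residual degrees of freedom, adjusted p under 0.05 over 11492 genes), tested on simulated data first. NT stayed out of the fit. Log2 CPM used a prior count of 2, and NT ratios added 5 CPM. Intervals and limits on NT cover counting error only, since no molecular identifiers are named. Named genes were the 10 chemokines, up to 2 genes per related list and comparison with the largest called change or else the smallest p, and the 3 genes most like each chemokine among 8226 with a mean log2 CPM of at least 3; Cxcl16, Cxcr2, Cxcr4, Ackr3, Ltb, Il1b, the tissue checks and the neutrophil genes were added for their roles. The members, lists and settings were chosen with earlier results of these data known. Replicate numbers were checked for pairing: same-numbered IR and DR libraries of day 7 deviated together (r from 0.214 to 0.72 in all 6 pairs), those of day 3 and those across days did not (r from -0.493 to 0.337). The main fit took all 24 libraries as separate, these day 7 pairs included. No 2 libraries were identical (r from 0.6412 to 0.9518). Alternatives were DESeq2 1.42.0, limma 3.58.1, other scaling, no filter, a replicate block, tissue covariates and left-out libraries. The counts per related list and marker list without the 6 gland-rich libraries were added after seeing the data.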

Additional observations from a re-analysis of the deposited data

Results flagged for a closer look

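Over the 40 combinations of chemokine and replanted group, 3 held a library whose gap to its nearest neighbour on the log2 scale was unusually large for 6 values by Dixon's 95% limit; chance at 1 in 20 would give 2. Cxcl13 stood at 1.006 CPM in IR day 3 replicate 6, while the other 5 libraries of the group held 12.96 to 45.7 CPM. Cxcl12 stood at 16.9 CPM in the same library, while the others held 56.28 to 101.4 CPM. That library also had lipid gland markers at 2.85% of its counts, and leaving it out is among the alternatives for every result. Cxcl11 stood at 0.9522 CPM in IR day 7 replicate 6, while the others held 6.166 to 15.79 CPM; nasal gland markers took 8.89% of the counts there.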

How the results depend on the processing

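Several day 3 values of Cxcl9, Cxcl10 and Cxcl11, and some of Cxcl2 and Ccl3, lie at a few counts or at 0, where depth limits them, and 6 libraries a group with a wide spread limited Cxcl1, Cxcl2, Ccl2 and Ccl3. In the averaged day comparison the count of called chemokines, 5, was also 5 with RLE scaling, without ribosomal RNA entries and with DESeq2 (19%, 18.4% and 22% of all genes). It was 4 without a low-count filter (12.8%). It was 9 with limma-voom quality weights, 0 with 3 tissue lists as covariates and 1 without the 6 gland-rich libraries; each setting also moved the share of all genes called (47.6%, 0.757% and 0.431%), and the cause was not tested. Leaving out 1 library gave 4 to 6. Cxcl10, Cxcl11, Cxcl13 and Ccl5 were called in each of the 24 such fits. Over time in IR the count was 3 with DESeq2 (5.89% of all genes), 8 with limma-voom (38.1%) and 0 to 1 with a library left out. In DR it was 3 with DESeq2 (8.01% of all genes) and 5 with limma-voom (28.6%). It was 1 in DR with only the 12 libraries compared (0.398%) and 0 to 3 with a library left out. With 1 CPM added in place of 5, 6 chemokines were past 2-fold above NT in IR day 3 and 7 in DR day 3, where 17.9% and 17.7% of all genes were. With 5 CPM added, leaving out a library gave 4 to 5 in DR day 3, 3 to 4 in IR day 3 and 7 to 9 in IR day 7.

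With the replicate number as a block, 4 chemokines were called in the averaged day comparison (Cxcl12 was lost) among 1197 genes, against 2156 without it, and 0 in the other 5 comparisons. The block used the labels' numbers; in the file names those of day 7 run from 2 to 7, and a block across days on that numbering would join other libraries. Same-numbered libraries paired only at day 7 between IR and DR, where 5 of 6 correlated best with their own number. No gene was called in that comparison with or without the block, so the calls cannot show an effect of it. In the averaged day comparison the block joined the same numbers over all 4 groups, also across days. A fit that blocked only the day 7 pairs was not run for it, and its p-values take those libraries as separate. Values that changed sign were uncalled. At day 3, DR minus IR was 0.31 for Cxcl1, -0.01327 for Cxcl10 and -0.02621 for Cxcl13 under the block; at day 7 it was 0.15 for Cxcl2, -0.1998 for Cxcl10 and 0.1297 for Ccl3, and the interaction was -0.05875 for Cxcl13 and -1.405 for Ccl3.

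With limma-voom, DR minus IR at day 3 was 0.2297 for Cxcl1, -1.245 for Cxcl10, -0.7874 for Cxcl13 and 0.3663 for Ccl3, at day 7 it was 0.01247 for Cxcl2, -0.2942 for Cxcl10 and 0.1053 for Ccl3, the interaction was 0.9508 for Cxcl10 and -0.261 for Ccl3, and the day difference of Ccl5 in IR was -0.1519. With tissue covariates, DR minus IR at day 3 was 2.723 for Cxcl1, 0.4613 for Cxcl12, 2.949 for Ccl3 and 0.01952 for Ccl5, at day 7 it was 0.7463 for Cxcl1, 1.914 for Cxcl2, 0.285 for Ccl2 and 1.394 for Ccl3, and the interaction was -0.8296 for Cxcl13 and -1.555 for Ccl3. In that fit the day difference in DR was -1.269 for Cxcl1, -1.078 for Cxcl2, -0.04305 for Cxcl12, -1.102 for Ccl2 and -0.5467 for Ccl3, and the averaged one was -0.2807 for Cxcl1. Without the gland-rich libraries it was -0.2746 in IR and -0.3094 in DR for Cxcl1, -0.5913 for Cxcl2 and -0.2598 for Ccl2 in DR, and averaged -0.292 for Cxcl1 and -0.1839 for Cxcl2, with an interaction of 0.06758 for Cxcl12.

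With 1 library left out, DR minus IR at day 3 ranged from -1.41 to 1.331 for Cxcl1, -0.8974 to 1.704 for Cxcl2, -0.6419 to 1.317 for Cxcl10, -0.3157 to 0.06041 for Cxcl12, -0.1372 to 0.443 for Cxcl13 and -1.237 to 0.6316 for Ccl3. At day 7 it ranged from -0.4311 to 0.2456 for Cxcl2, -0.1401 to 0.9459 for Cxcl9, -0.6201 to 0.5374 for Cxcl10, -0.2369 to 0.8118 for Cxcl11, -0.09219 to 0.5611 for Cxcl13 and -0.3028 to 0.2845 for Ccl3. The interaction ranged from -1.762 to 0.9791 for Cxcl1, -1.773 to 0.8275 for Cxcl2, -1.252 to 0.1809 for Cxcl9, -1.538 to 0.8439 for Cxcl10, -0.2881 to 0.08824 for Cxcl12, -0.1596 to 0.4938 for Cxcl13 and -0.6545 to 1.214 for Ccl3. None of these was called.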
